A study of Mus musculus with 12 samples.

Results

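The Hox genes are the 39 protein-coding mouse genes whose symbols are Hoxa, Hoxb, Hoxc or Hoxd followed by a paralog number, 39 of the 52636 genes listed in the deposited count files. The rule used names only and no measured value. They form 4 clusters: 11 Hoxa genes on chromosome 6, 10 Hoxb genes on chromosome 11 (chr11:96194316-96368256), 9 Hoxc genes on chromosome 15 (chr15:102921103-103036852) and 9 Hoxd genes on chromosome 2 (chr2:74668310-74765142), all in GRCm38. Below, paralog positions 1 to 3 are called anterior (8 genes), 4 to 8 central (15 genes) and 9 to 13 posterior (16 genes).

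RNA-seq counts were available for 12 bulk 2153L tumors, a genetically engineered mouse mammary tumor line classed by the labels as triple-negative breast cancer, grown in female Balbc mice from transplants to the mammary fat pad. The 4 groups, with 3 tumors each, were p53ERTAM tumors under combo, p53ERTAM tumors under vehicle, empty vector (EV) tumors under combo and EV tumors under vehicle. p53ERTAM is p53 joined to a hormone-binding domain that makes it tamoxifen-inducible. Combo is ORIN1001, which blocks the RNase activity of IRE1α, a sensor of unfolded proteins, given daily at 150 mg/kg, with docetaxel, a microtubule drug, given weekly at 20 mg/kg, over 8 days. The promoter that drives the vector, the age of the mice and which mice received tamoxifen are not given in the sources used here. Host stroma, vessels and immune cells remain in bulk tumor RNA, and the replicates are samples the titles number 1 to 3, with nothing said on litters or batches.

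Hox genes encode homeodomain transcription factors that set position along the body axis, and within a cluster they lie in the order in which they are used from head to tail. HOX proteins bind DNA with PBX and MEIS cofactors, retinoic acid activates the anterior end of the clusters, and Polycomb and Trithorax (MLL) complexes keep them off or on. In the adult, connective tissue and epithelia keep a subset active: in human skin, fibroblasts carry a Hox pattern that marks where on the body they came from, and in mice the group 9 genes Hoxa9, Hoxb9 and Hoxd9 together are needed for the mammary gland to develop in pregnancy.

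RefSeq promoter windows (GRCm38.p6) are shown for Hoxa3, Hoxa5, Hoxa6 and Hoxc4, because their response to combo differed between the vectors as described below. Hoxa4, Hoxc5 and Hoxc6 are named only. Each run below is the 250 bases before the annotated start, 5′ to 3′ on the gene's strand, with CG dinucleotides in capitals. They are chr6:52213068-52213317 (minus strand), chr6:52204588-52204837 (minus strand), chr6:52208673-52208922 (minus strand) and chr15:103034145-103034394 (plus strand).
Hoxa3: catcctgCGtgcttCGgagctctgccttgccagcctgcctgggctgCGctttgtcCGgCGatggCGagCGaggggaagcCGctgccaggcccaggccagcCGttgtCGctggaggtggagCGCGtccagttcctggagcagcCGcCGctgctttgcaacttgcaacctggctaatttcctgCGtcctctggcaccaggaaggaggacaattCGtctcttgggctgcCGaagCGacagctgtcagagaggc
Hoxa5: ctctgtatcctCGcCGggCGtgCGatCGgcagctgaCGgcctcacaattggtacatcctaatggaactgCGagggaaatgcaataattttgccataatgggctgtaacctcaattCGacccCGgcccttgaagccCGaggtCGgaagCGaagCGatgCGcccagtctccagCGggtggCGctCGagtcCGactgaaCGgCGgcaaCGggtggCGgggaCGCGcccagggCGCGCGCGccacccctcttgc
Hoxa6: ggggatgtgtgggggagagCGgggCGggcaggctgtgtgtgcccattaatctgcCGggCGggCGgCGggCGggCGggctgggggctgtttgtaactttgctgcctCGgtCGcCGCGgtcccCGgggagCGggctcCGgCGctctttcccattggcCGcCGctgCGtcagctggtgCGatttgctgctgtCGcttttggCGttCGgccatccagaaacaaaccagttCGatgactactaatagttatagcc
Hoxc4: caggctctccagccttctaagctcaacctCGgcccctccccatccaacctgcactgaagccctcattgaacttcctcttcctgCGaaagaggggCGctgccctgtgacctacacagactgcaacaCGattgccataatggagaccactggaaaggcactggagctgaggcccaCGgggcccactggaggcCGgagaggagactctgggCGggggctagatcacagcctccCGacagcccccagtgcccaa
The windows of Hoxa3, Hoxa5 and Hoxa6 held 18, 28 and 24 CG dinucleotides, against a median of 6 and a 75th percentile of 16 over all 32851 promoter windows of this length. That of Hoxc4 held 8. The hexamer AGGTCA, bound by retinoic acid receptors and other nuclear receptors and searched on both strands, was found in Hoxc4 and in none of the other 3 windows, and in 14.02% of all windows of this length. Over the 22 Hox genes with an entry, 6 of 24 windows held AGGTCA, and TGATNNAT, a HOX-PBX type motif, was in 4 of 24, against 7.68% of all windows. It was in none of the 4 shown. These matches describe letters in a window and were not tested against expression.

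Libraries held 13484873 to 24424964 counts. Levels of single genes below are CPM, counts scaled to library size with TMM factors, and no 2 libraries of a group held identical values. Even numbers made up 66.3 to 71.7% of the counts between 1 and 20 and 49.2 to 52.1% of those over 200, and whether both reads of a pair were counted is not given in the sources used here. The p53 target Cdkn1a, a cell-cycle inhibitor, was higher in p53ERTAM tumors than in EV tumors under combo (log2 fold change 2.42 ± 0.33 (SE), adjusted p = 0.00017 by edgeR) and under vehicle (1.90 ± 0.33 (SE), adjusted p = 0.00107). The 3 EV combo libraries stood apart: Gm26917, a noncoding RNA, took 10.7 to 11.1% of their counts, against 0.133 to 1.10% in the other 9, and protein-coding genes took 80.9 to 81.6%, against 86.6 to 95.8%. Marker genes of other cells also moved with the groups. The summed level of 10 fibroblast markers was 649 to 926 TPM (a level scaled for length and library size) in p53ERTAM combo, 655 to 1355 in p53ERTAM vehicle, 470 to 915 in EV combo and 230 to 234 TPM in EV vehicle. That of 10 endothelial markers was 154 to 223, 128 to 187, 85.0 to 153 and 38.2 to 77.1 TPM in the same groups, and no marker of either list was at 0 in any library. The 10 epithelial markers, all with counts in every library, summed to 3786 to 4692, 2464 to 3649, 3615 to 4834 and 5390 to 6684 TPM. The 8 macrophage markers summed to 2223 to 2949, 782 to 1079, 773 to 1040 and 913 to 1161 TPM. The 7 basal mammary markers summed to 747 to 759, 649 to 981, 1267 to 1806 and 891 to 1302 TPM. Over all libraries, 8 markers of other leukocytes summed to 66.4 to 238 TPM, 6 adipocyte markers to 4.77 to 11.3 TPM and 8 skeletal muscle markers to at most 3.74 TPM. Fewer cells of a type and less RNA per cell cannot be told apart in bulk samples.

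Hox transcripts were scarce: 780 to 1976 counts per library, 0.00382 to 0.00932% of all counts. Of the 39 genes, 33 had a count in some library and 25 passed the filter on low counts, 9 of 11 Hoxa, 7 of 10 Hoxb, 7 of 9 Hoxc and 2 of 9 Hoxd genes. Hoxb1, Hoxc12, Hoxd1, Hoxd11, Hoxd12 and Hoxd13 had no count in any of the 12 libraries, where 3 counts over a group would be 0.0427 to 0.0616 CPM. The remaining 8 untested genes (Hoxa11, Hoxa13, Hoxb9, Hoxb13, Hoxc11, Hoxd3, Hoxd4 and Hoxd10) reached at most 10 counts in a library. On their own strand, 62.3% of the exon bases of Hoxd3 and 52.3% of those of Hoxd4 overlap each other or the gene Gm28230. Hoxb9, a member of the group needed for mammary development, had 10, 4 and 4 counts in p53ERTAM combo and 2, 10 and 0 in p53ERTAM vehicle. In EV combo it had 0, 2 and 6 counts and in EV vehicle 2, 6 and 0. Of the 25 tested, 24 had 3 or more libraries over the filter's level of 0.501 CPM outside their highest group, the exception being Hoxd9. Hoxb2, with 8 libraries over that level, also needed its p53ERTAM libraries to pass.

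**Figure D1:**
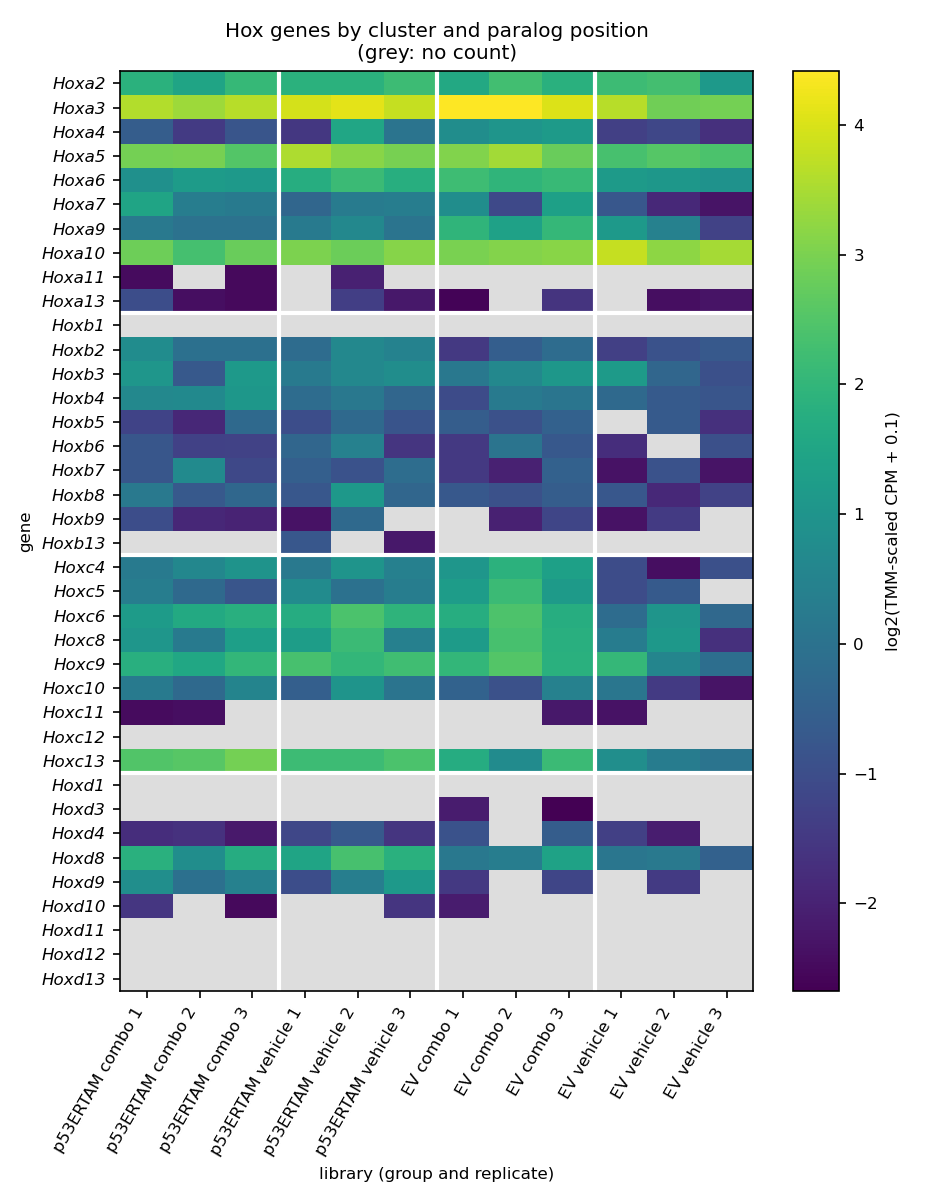
Rows are Hox genes by cluster and paralog position, columns the 12 libraries by group and replicate, and colour gives log2(TMM-scaled CPM + 0.1), with grey for no count. Hoxa3, Hoxa5 and Hoxa10 are bright in all 12 libraries, while the Hoxd cluster shows little but Hoxd8 and Hoxd9.

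Between genes, levels are compared per length. Over the 12 libraries the highest mean levels included those of Hoxa5 (13.2 TPM), which is needed for lung and thoracic development, Hoxa6 (11.2 TPM), and Hoxa10 (8.45 TPM), which patterns the uterus. Hoxa3 (7.65 TPM), needed for thymus and parathyroid, and Hoxa2 (6.83 TPM), which patterns the jaw and ear region, were also among the highest. In the Hoxc cluster the order differed between groups. Hoxc13, a hair and nail gene, averaged 8.63 TPM in p53ERTAM combo, 5.84 in p53ERTAM vehicle, 4.37 in EV combo and 1.59 TPM in EV vehicle. Hoxc9 averaged 4.70, 5.74, 6.34 and 2.67 TPM and Hoxc6 4.03, 5.01, 5.76 and 1.503 TPM in the same groups. Hoxc13 was the highest of these 3 in all p53ERTAM combo libraries, and Hoxc9 had the highest mean of them in both EV groups. Hoxd8 reached 2.62 TPM and the highest Hoxb gene, Hoxb4, 1.25 TPM. The Hoxa cluster thus held most of the Hox RNA in every group.

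All 39 genes summed to 95.8 ± 6.29 TPM in p53ERTAM combo, 104 ± 4.03 TPM in p53ERTAM vehicle, 115 ± 8.16 TPM in EV combo and 62.4 ± 11.6 TPM in EV vehicle (SD, n = 3 each). EV vehicle tumors were lowest, with no overlap with the other 3 groups (49.96 to 73.0 TPM against 89.4 TPM or more). The central genes accounted for the largest part of that difference, with 41.9 ± 1.01, 51.2 ± 4.90, 63.3 ± 6.66 and 23.7 ± 3.46 TPM in the same order of groups. The anterior sum was 28.8 ± 3.91, 29.0 ± 5.59, 27.7 ± 2.49 and 21.9 ± 4.76 TPM, and the posterior sum 25.2 ± 3.60, 24.1 ± 3.23, 24.3 ± 2.97 and 16.9 ± 5.68 TPM. The anterior and posterior sums of EV vehicle overlapped those of 1 or more other groups. Position 6 had the widest central range, 12.5 ± 1.71, 18.7 ± 1.89, 23.8 ± 0.985 and 9.01 ± 0.886 TPM, and its 4 groups did not overlap. These sums were not tested.

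**Figure D2:**
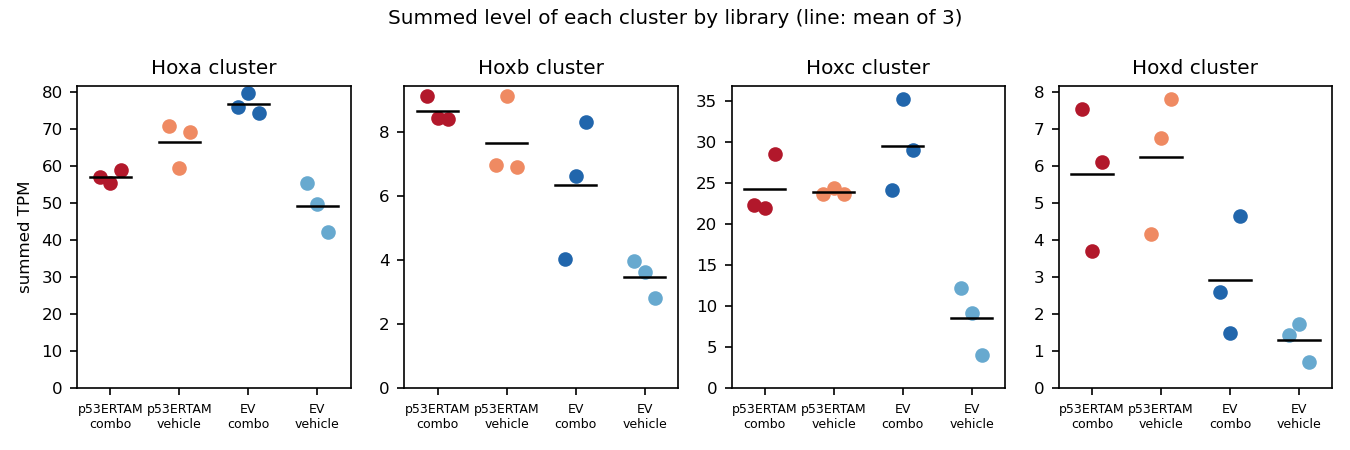
Summed TPM of the genes of each cluster (vertical axes start at 0) in each library, as points, with the mean of 3 as a line, for p53ERTAM combo, p53ERTAM vehicle, EV combo and EV vehicle. The Hoxa cluster averages 57.2, 66.5, 76.7 and 49.2 TPM in these groups and the Hoxc cluster 24.3, 23.9, 29.5 and 8.496 TPM, while the Hoxd cluster averages 5.79 and 6.26 TPM in the p53ERTAM groups and 2.92 and 1.30 TPM in the EV groups.

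In EV tumors, combo raised 10 of the 25 tested Hox genes and lowered none: Hoxa3, Hoxa4, Hoxa5, Hoxa6, Hoxa7, Hoxa9, Hoxc4, Hoxc5, Hoxc6 and Hoxc13. Levels are given as TMM-scaled CPM per library, and a call means an adjusted p below 0.05 in edgeR's quasi-likelihood test with Benjamini-Hochberg adjustment over 17970 genes. Over all tested genes 18.8% were called higher and 21.1% lower in this comparison, so the Hox genes had a larger share of higher calls than the background and a smaller share of lower ones. The median log2 fold change was 1.06 over the 25 Hox genes and -0.07 over all genes. In 22 of the 25 the fold change was positive, against 8274 of all 17970 genes. An unadjusted p under 0.05 (edgeR) was found for 13 of the 25 and for 8828 of the 17970, a similar share. Calls fell in the Hoxa cluster (6 of 9 tested) and the Hoxc cluster (4 of 7), with none of 7 Hoxb and none of 2 Hoxd genes.

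The called genes were mostly central. Of 14 tested central genes 7 were called higher, and all 14 had a positive log2 fold change, with a median of 1.29. The anterior zone had 1 call of 5 and the posterior zone 2 of 6.

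At position 4, Hoxc4 had 1.97, 3.61 and 2.45 CPM in EV combo tumors, against 0.394, 0.0877 and 0.416 CPM in EV vehicle tumors. The lowest EV combo library was above the highest EV vehicle library by more than 4-fold. This was the lowest adjusted p of the 25 (log2 fold change 3.15 ± 0.54 (SE), adjusted p = 0.000802 by edgeR).
Its paralog Hoxa4 had 1.65, 1.95 and 2.16 CPM in EV combo, against 0.296, 0.351 and 0.208 CPM in EV vehicle, again without overlap (log2 fold change 2.72 ± 0.71 (SE), adjusted p = 0.0088 by edgeR). Hoxb4, which expands blood stem cells when forced on, had 0.380, 1.08 and 0.968 CPM in EV combo and 0.739, 0.526 and 0.468 CPM in EV vehicle. These Hoxb4 ranges overlap and the gene was not called (log2 fold change 0.48 ± 0.48 (SE), adjusted p = 0.449, edgeR).

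At position 5, Hoxc5 had 2.28, 4.40 and 2.16 CPM in EV combo, against 0.394, 0.526 and 0 CPM in EV vehicle, where 1 library had no count. The groups do not overlap, and the log2 fold change was 3.20 ± 0.72 (SE), adjusted p = 0.00372 (edgeR). Hoxa5, the most abundant Hox gene per length, had 8.37, 10.6 and 6.83 CPM in EV combo, against 5.03, 5.70 and 5.26 CPM in EV vehicle. All 3 EV combo libraries were above the EV vehicle range, and the change was the smallest of the 10 (0.69 ± 0.24 (SE), adjusted p = 0.0338, edgeR). Hoxb5 had 0.571, 0.433 and 0.626 CPM in EV combo and 0, 0.526 and 0.208 CPM in EV vehicle, overlapping values with no call (log2 fold change 1.11 ± 0.86 (SE), adjusted p = 0.323, edgeR).

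At position 6, Hoxa6 had 4.50, 3.83 and 4.21 CPM in EV combo, against 2.17, 2.02 and 1.82 CPM in EV vehicle. Hoxc6 had 3.23, 5.27 and 3.24 CPM in EV combo, against 0.788, 1.93 and 0.728 CPM in EV vehicle. In both genes the groups are separate, with edgeR log2 fold changes of 1.06 ± 0.27 (SE), adjusted p = 0.00765 for Hoxa6 and 1.75 ± 0.41 (SE), adjusted p = 0.00505 for Hoxc6. Hoxa7 had 1.65, 0.361 and 2.45 CPM in EV combo, against 0.493, 0.175 and 0.104 CPM in EV vehicle. EV combo replicate 2 lay inside the EV vehicle range, although the gene was called (log2 fold change 2.52 ± 0.73 (SE), adjusted p = 0.015, edgeR).

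In the anterior zone, Hoxa3 had 20.9, 21.2 and 16.5 CPM in EV combo, against 12.5, 7.28 and 7.54 CPM in EV vehicle, and was called (log2 fold change 1.10 ± 0.22 (SE), adjusted p = 0.00177, edgeR). All 3 EV combo libraries were above the EV vehicle range. Hoxa2 had a log2 fold change of -0.03 ± 0.34 (SE), adjusted p = 0.952 (edgeR), without a call.

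In the posterior zone, Hoxa9, which acts with Meis1 in leukemia, had 3.80, 2.53 and 4.04 CPM in EV combo, against 2.12, 1.27 and 0.312 CPM in EV vehicle (log2 fold change 1.48 ± 0.51 (SE), adjusted p = 0.0328, edgeR). Hoxc13, a regulator of hair and nail keratins, had 3.17, 1.59 and 4.33 CPM in EV combo, against 1.68, 1.14 and 0.937 CPM in EV vehicle. EV combo replicate 2 overlapped the vehicle range, and the log2 fold change was 1.28 ± 0.36 (SE), adjusted p = 0.0137 (edgeR). Hoxa10 had 7.86, 8.52 and 8.88 CPM in EV combo, all below the 13.7, 9.07 and 10.9 CPM of EV vehicle, without a call (log2 fold change -0.42 ± 0.21 (SE), adjusted p = 0.138, edgeR). Hoxc8 (log2 fold change 1.61 ± 0.64 (SE), adjusted p = 0.0613) and Hoxc9 (1.06 ± 0.46 (SE), adjusted p = 0.0797) were just outside the threshold by edgeR. The 7 Hoxb genes had log2 fold changes of 0.38 to 1.47 and the 2 Hoxd genes 0.83 and 1.09, none called.

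**Figure D3:**
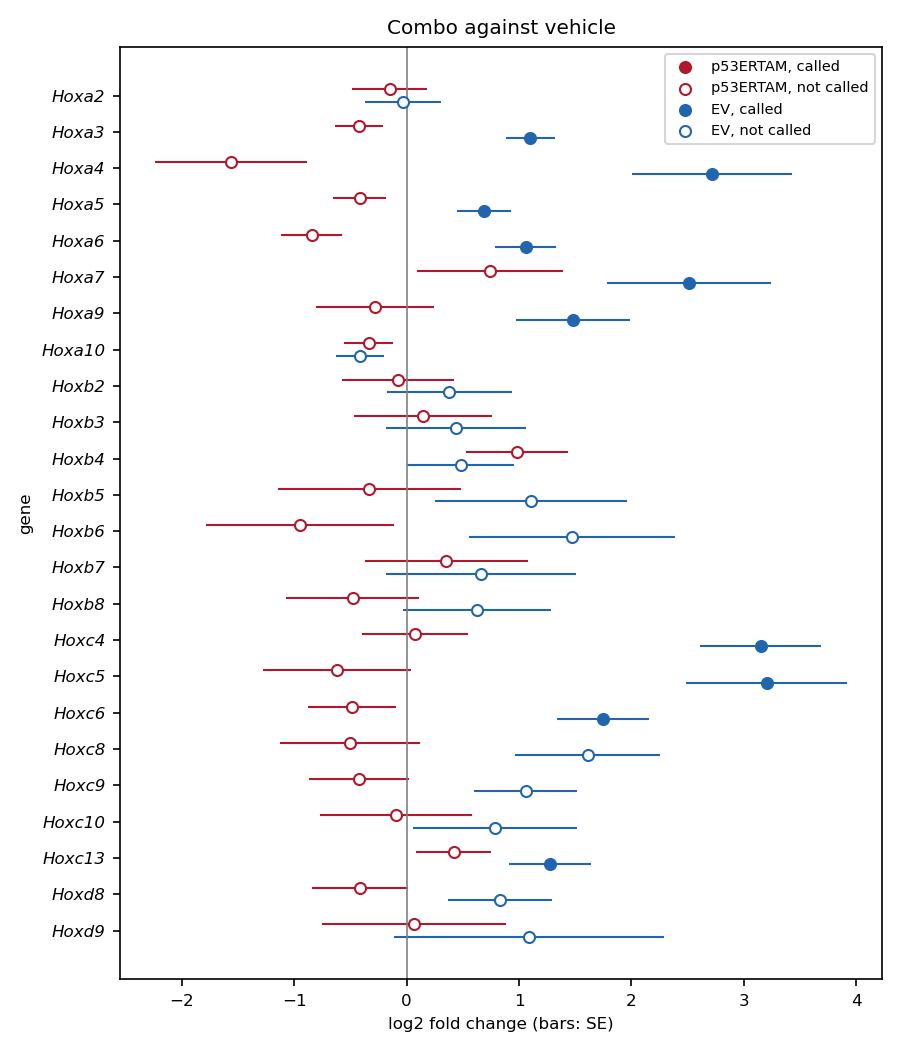
Log2 fold change of combo against vehicle with its standard error (horizontal bars) for tested Hox genes in p53ERTAM tumors and in EV tumors, with filled symbols for calls at an adjusted p below 0.05. The 10 filled symbols are all in EV tumors and to the right of 0, from Hoxa5 at 0.69 to Hoxc5 at 3.20, and no gene is filled in p53ERTAM tumors.

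Single libraries decided some of these calls. Without 1 library, the adjusted p (edgeR) of Hoxa5 was 0.0749 without EV vehicle 1, 0.0602 without EV vehicle 3, 0.0688 without EV combo 1 and 0.142 without EV combo 2. That of Hoxa9 was 0.0602 without EV vehicle 2, 0.0541 without EV vehicle 3, 0.0839 without EV combo 1 and 0.0918 without EV combo 3, while without EV vehicle 1 its log2 fold change was 2.11. Hoxa7 (0.0726) and Hoxc13 (0.0765) missed the threshold without EV combo 3, and Hoxa7 had a log2 fold change of 3.36 without EV vehicle 1. Without EV vehicle 2 the log2 fold change was 3.87 for Hoxc5 and 2.38 for Hoxc6. In the other direction, Hoxc9 was called without EV vehicle 1 (1.98, adjusted p = 0.00173). With limma voom, Hoxa5 (0.0665), Hoxa7 (0.110) and Hoxc13 (0.0699) were not called, and with no filter on low counts Hoxa5 was not (0.0628, edgeR). With the EV groups alone in the fit, Hoxa9 (0.0819) and Hoxc13 (0.0575) were not called by edgeR. Hoxa3, Hoxa4, Hoxa6, Hoxc4, Hoxc5 and Hoxc6 stayed below 0.05 without any 1 library. Fibroblast markers moved with these Hox genes, 6 of 10 called higher in EV combo with a median log2 fold change of 1.13, as did 5 of 10 endothelial markers, and 6 of 10 epithelial markers were called lower. Their part in the Hox differences was not tested, nor was that of the RNA composition of the EV combo libraries.

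In p53ERTAM tumors, combo changed no Hox gene past the threshold: 0 of 25 were called by edgeR, with 3 at an unadjusted p under 0.05 (Hoxa4, Hoxa6 and Hoxb4). Such a p was reached by 4432 of all 17970 tested genes, a larger share. DESeq2 and limma voom each called 1, Hoxa6. Over all tested genes 3.3% were called higher and 2.98% lower, so few calls were made anywhere in this comparison. The median log2 fold change was -0.33 over the 25 Hox genes and 0.00 over all genes. Of the 25, 18 were negative, against 8891 of the 17970. Hoxa6 had 1.73, 2.21 and 2.16 CPM in p53ERTAM combo, against 3.27, 4.40 and 3.32 CPM in p53ERTAM vehicle. The groups do not overlap, and the log2 fold change was -0.85 ± 0.27 (SE), adjusted p = 0.0754 by edgeR, 0.0210 by DESeq2 and 0.0244 by limma voom. Hoxa3 had 11.99, 10.3 and 12.5 CPM in p53ERTAM combo, against 15.4, 17.5 and 13.7 CPM in p53ERTAM vehicle, also without overlap and without a call (-0.42 ± 0.21 (SE), adjusted p = 0.244, edgeR).

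Hoxa4 had 0.563, 0.260 and 0.470 CPM in p53ERTAM combo, against 0.248, 2.79 and 0.932 CPM in p53ERTAM vehicle. The vehicle values ranged more than 10-fold, with replicate 2 far above the other 2, and the log2 fold change was -1.56 ± 0.68 (SE), adjusted p = 0.175 (edgeR). That library also had the highest summed fibroblast marker level of the 12, 1355 TPM. Hoxb4 had separate groups without a call, with 1.45, 1.51 and 1.999 CPM in p53ERTAM combo and 0.792, 1.03 and 0.699 CPM in p53ERTAM vehicle (0.98 ± 0.45 (SE), adjusted p = 0.199, edgeR). Hoxc4 (0.08 ± 0.47 (SE), adjusted p = 0.945) and Hoxc6 (-0.49 ± 0.39 (SE), adjusted p = 0.475), both called under combo in EV tumors, were not called here by edgeR. Hoxc13 had 5.47, 5.88 and 7.52 CPM in p53ERTAM combo, all above the 4.41, 4.47 and 5.24 CPM of p53ERTAM vehicle, without a call (0.42 ± 0.34 (SE), adjusted p = 0.474, edgeR). Of the marker lists, 7 of 8 macrophage genes were called higher and 4 of 7 basal mammary genes lower under combo, while 0 of 10 fibroblast markers were called, and their part was not tested.

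The interaction asks whether the response to combo differed between the vectors: it is the log2 fold change of combo in p53ERTAM tumors minus that in EV tumors. It was negative and called for 7 of the 25 Hox genes, Hoxa3, Hoxa4, Hoxa5, Hoxa6, Hoxc4, Hoxc5 and Hoxc6, and called positive for none. Over all tested genes 18.8% were called higher and 17.2% lower. The median interaction was -1.24 over the Hox genes and 0.13 over all genes. An unadjusted p under 0.05 (edgeR) was reached by 10 of the 25 Hox genes and by 8292 of all 17970, a larger share. The 7 genes lie at positions 3 to 6 of the Hoxa cluster and 4 to 6 of the Hoxc cluster, 6 of 14 tested central genes, 1 of 5 anterior and 0 of 6 posterior genes. They are Hoxa3 (chr6:52169062-52213336), Hoxa4 (chr6:52189671-52191753), Hoxa5 (chr6:52201754-52204587) and Hoxa6 (chr6:52206288-52208722), and Hoxc4 (chr15:103018934-103036852), Hoxc5 (chr15:102967443-103017429) and Hoxc6 (chr15:102998257-103011881), in GRCm38. These are neighbours on the chromosome, without a gap among the tested genes of each cluster. No Hoxb and no Hoxd gene was called, with interactions of -2.42 to 0.50 in the Hoxb cluster and -1.24 to -1.03 in the Hoxd cluster.

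Hoxa4 had the largest difference in response, -4.28 ± 0.98 (SE) on the log2 scale (adjusted p = 0.0053 by edgeR), with combo effects of -1.56 in p53ERTAM and 2.72 in EV tumors. Hoxc5 followed with an interaction of -3.83 ± 0.97 (SE), adjusted p = 0.00888 (edgeR), from effects of -0.62 in p53ERTAM and 3.20 in EV tumors. For Hoxc4 it was -3.08 ± 0.71 (SE), adjusted p = 0.00558 (edgeR), with 0.08 in p53ERTAM and 3.15 in EV tumors. The effect in EV tumors was positive and called for all 3, while none of the 3 effects in p53ERTAM tumors was called.
At position 6, the interaction was -2.23 ± 0.57 (SE), adjusted p = 0.00887 for Hoxc6 and -1.91 ± 0.38 (SE), adjusted p = 0.00249 for Hoxa6 (edgeR). The combo effect on Hoxa6 was -0.85 in p53ERTAM tumors, where it was not called, and 1.06 in EV tumors. For Hoxa3 the interaction was -1.52 ± 0.30 (SE), adjusted p = 0.00245 and for Hoxa5 -1.11 ± 0.33 (SE), adjusted p = 0.0206 (edgeR), the smallest of the 7.
Next to the Hoxa block, Hoxa7 had an interaction larger in size than those of Hoxa3 and Hoxa5, without a call (-1.78 ± 0.97 (SE), adjusted p = 0.168, edgeR). Hoxa2 (-0.12), on the block's other side, and Hoxa10 (0.08) had interactions closer to 0, neither called. Hoxa9 (-1.76 ± 0.73 (SE), adjusted p = 0.0747), Hoxc8 (-2.12 ± 0.89 (SE), adjusted p = 0.0801) and Hoxc9 (-1.48 ± 0.64 (SE), adjusted p = 0.0834) were negative and short of the threshold by edgeR.

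**Figure D4:**
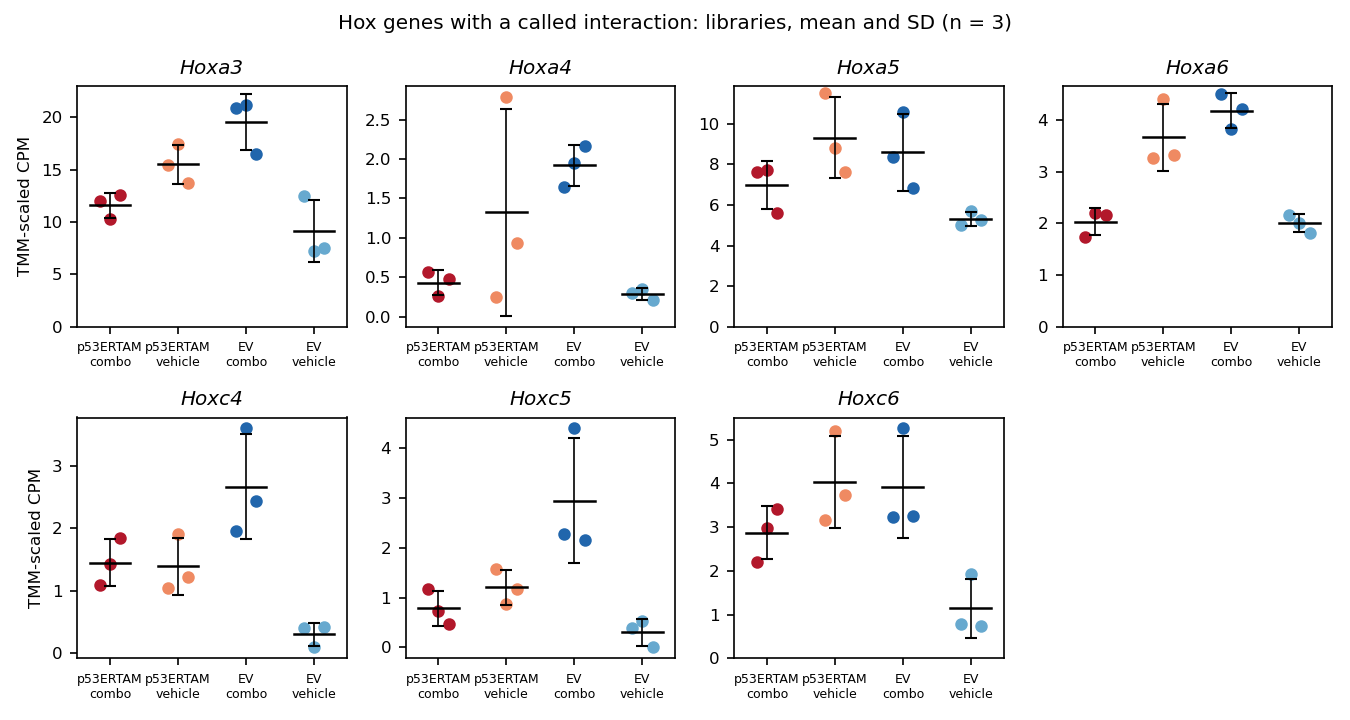
TMM-scaled CPM per library (points), group means (lines) and SD (bars) of the 7 Hox genes with a called interaction, for p53ERTAM combo, p53ERTAM vehicle, EV combo and EV vehicle. In each panel EV vehicle holds the lowest or nearly the lowest values and EV combo is above it, while p53ERTAM combo is level with or below p53ERTAM vehicle.

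Hoxa5 lost its interaction call without EV combo 2 (adjusted p = 0.0558, edgeR), p53ERTAM vehicle 1 (0.0559) or p53ERTAM combo 3 (0.0555), and the other 6 kept theirs without any 1 library. The Hoxa4 interaction was -3.14 without p53ERTAM vehicle 2 (adjusted p = 0.0161, edgeR) and -2.62 by limma voom. Without EV vehicle 2 the interactions of Hoxc5 and Hoxc6 were -4.48 and -2.86. Hoxa9 (adjusted p = 0.0208, edgeR) and Hoxc9 (0.00250) were called negative without EV vehicle 1. Fibroblast markers had called negative interactions too, 5 of 10, and 4 of 7 basal mammary markers as well, while 6 of 10 epithelial and 6 of 8 macrophage markers had positive ones, and their part was not tested. The interaction and the comparisons within each vector share libraries and are not independent.

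Under vehicle, p53ERTAM tumors were compared with EV tumors, both without ORIN1001 and docetaxel. Which of these mice received tamoxifen is not given in the sources used here. Of the 25 Hox genes, 11 were called higher in p53ERTAM tumors and none lower, against 17.9% higher and 19.8% lower over all tested genes. They are Hoxa3, Hoxa4, Hoxa5, Hoxa6, Hoxb2, Hoxc4, Hoxc5, Hoxc6, Hoxc13, Hoxd8 and Hoxd9. The median log2 fold change was 1.31 over the Hox genes and 0.01 over all genes. An unadjusted p under 0.05 (edgeR) was found for 15 of the 25, against 8496 of all 17970 genes. By zone, 2 of 5 anterior, 7 of 14 central and 2 of 6 posterior genes were called. Both tested Hoxd genes were among them. Of these, Hoxd9 passed the filter on low counts through p53ERTAM libraries alone, so its call is no support for a difference between the vectors. The call of Hoxb2 is no support for one either, because its EV libraries over the filter's level were too few to pass alone. This comparison and that of combo in EV tumors share the 3 EV vehicle libraries, which had the lowest Hox levels, so the 2 sets of calls are not independent.

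Hoxd9 had 0.396, 1.17 and 2.10 CPM in p53ERTAM vehicle, against 0, 0.263 and 0 CPM in EV vehicle, where only replicate 2 had counts (0, 6 and 0 counts against 8, 16 and 36). The log2 fold change was 3.61 ± 1.04 (SE), adjusted p = 0.0156 (edgeR). Its neighbour Hoxd8 had 2.67, 4.99 and 3.44 CPM in p53ERTAM vehicle, against 0.986, 1.05 and 0.624 CPM in EV vehicle, and a log2 fold change of 2.04 ± 0.46 (SE), adjusted p = 0.00392 (edgeR). In both the groups are separate, though Hoxd9 entered the test only through the p53ERTAM libraries where it was high.
Hoxc13 had 4.41, 4.47 and 5.24 CPM in p53ERTAM vehicle, against 1.68, 1.14 and 0.937 CPM in EV vehicle, also without overlap (1.91 ± 0.36 (SE), adjusted p = 0.00146, edgeR). Hoxc4 had 1.04, 1.91 and 1.22 CPM in p53ERTAM vehicle, above the 0.394, 0.0877 and 0.416 CPM of EV vehicle in every library (2.20 ± 0.54 (SE), adjusted p = 0.00663, edgeR). Hoxc6 was likewise separate, 3.17, 5.21 and 3.73 CPM in p53ERTAM vehicle against 0.788, 1.93 and 0.728 CPM in EV vehicle (1.79 ± 0.41 (SE), adjusted p = 0.00465, edgeR). Hoxb2, a hindbrain gene, was the 1 called Hoxb gene, with 0.792, 1.47 and 1.28 CPM in p53ERTAM vehicle and 0.296, 0.438 and 0.520 CPM in EV vehicle (1.47 ± 0.53 (SE), adjusted p = 0.0437, edgeR). It too entered the test only with the help of the p53ERTAM libraries where it was high.
Hoxa4 had 0.248, 2.79 and 0.932 CPM in p53ERTAM vehicle, against 0.296, 0.351 and 0.208 CPM in EV vehicle, and p53ERTAM vehicle replicate 1 lay inside the EV vehicle range (2.15 ± 0.72 (SE), adjusted p = 0.0308, edgeR). Hoxc5 had 1.58, 0.880 and 1.16 CPM in p53ERTAM vehicle, against 0.394, 0.526 and 0 CPM in EV vehicle (1.94 ± 0.72 (SE), adjusted p = 0.048, edgeR). The other Hoxa genes moved less: Hoxa3 by 0.77 ± 0.22 (SE), adjusted p = 0.0135, Hoxa5 by 0.81 ± 0.24 (SE), adjusted p = 0.0167 and Hoxa6 by 0.87 ± 0.27 (SE), adjusted p = 0.0228 (log2 fold change, edgeR). Hoxa10 was lower in level in all p53ERTAM vehicle libraries (8.02, 7.04 and 8.68 CPM) than in EV vehicle (13.7, 9.07 and 10.9 CPM) without a call (-0.51 ± 0.21 (SE), adjusted p = 0.0792, edgeR).

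Several of these calls depended on a single library. Without p53ERTAM vehicle 2, 6 genes were called, and without EV vehicle 3, 7. Hoxa4 rested on p53ERTAM vehicle 2 (log2 fold change 1.01, adjusted p = 0.271 without it, edgeR), and missed the threshold without EV vehicle 1 (0.0639), 2 (0.0538) or 3 (0.0796), and by limma voom (0.57, adjusted p = 0.609). Without p53ERTAM vehicle 2 the adjusted p was 0.0518 for Hoxa3 and 0.0812 for Hoxa6, which also missed it without EV vehicle 3 (0.0543). Hoxa5 missed it without p53ERTAM vehicle 1 (0.0751). Hoxb2 was lost in 9 of 12 such fits (0.0533 to 0.127, edgeR), the exceptions being EV combo 1, EV combo 3 and p53ERTAM vehicle 1. Hoxc5 was lost in 11 of 12 (0.0528 to 0.131) and kept only without EV vehicle 2 (log2 fold change 2.60, adjusted p = 0.0324). Hoxd9 was lost without p53ERTAM vehicle 3 (2.95, adjusted p = 0.0624), and without EV vehicle 2 its EV vehicle libraries were all at 0. Hoxc6 had a log2 fold change of 2.42 without EV vehicle 2. Hoxa7 was called higher without EV vehicle 1 (2.74, adjusted p = 0.0259, edgeR) or EV combo 2 (0.0311), and Hoxc9 without EV vehicle 1 (2.05, adjusted p = 0.00134). Limma voom also gave no call for Hoxa6 (0.0615), Hoxb2 (0.153), Hoxc5 (0.0616) and Hoxd9 (0.0784), and the 2 vehicle groups alone gave none for Hoxa3 (0.0522), Hoxa6 (0.0865), Hoxb2 (0.0652) and Hoxc5 (0.112) by edgeR. With no filter on low counts Hoxa6 (0.123) and Hoxb2 (0.112) were not called by edgeR, and without the EV combo libraries Hoxa4 (0.0528) and Hoxc5 (0.0724) were not. Hoxc4, Hoxc6, Hoxc13 and Hoxd8 were called in every one of these. Among the markers, 6 of 10 fibroblast and 8 of 10 endothelial genes were called higher and 7 of 10 epithelial and 5 of 7 basal mammary genes lower in p53ERTAM vehicle, and their part was not tested.

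Under combo, p53ERTAM tumors differed from EV tumors in both directions. Of the 25 genes 3 were called higher, among them Hoxc13 and Hoxd9, and 5 lower, Hoxa3, Hoxa4, Hoxa6, Hoxa9 and Hoxc5, against 22.1% higher and 22% lower over all tested genes. These shares are close to the background or, for the higher calls, below it. The median log2 fold change was -0.30 over the Hox genes and 0.06 over all genes. With scaling on protein-coding genes alone, 2 were called higher and 6 lower.

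Hoxc13 had 5.47, 5.88 and 7.52 CPM in p53ERTAM combo, against 3.17, 1.59 and 4.33 CPM in EV combo (1.05 ± 0.34 (SE), adjusted p = 0.0249, edgeR). Hoxd9 had 1.69, 0.865 and 1.25 CPM in p53ERTAM combo, against 0.254, 0 and 0.342 CPM in EV combo (2.59 ± 0.97 (SE), adjusted p = 0.0435, edgeR). Hoxc13 was thus higher in p53ERTAM than in EV tumors under both treatments. Hoxd9 was called under both too, but passed the filter on low counts through p53ERTAM libraries alone, with 5 over the cutoff, so its calls are no support for a difference between the vectors.
On the lower side, Hoxa9 had 1.05, 0.908 and 0.901 CPM in p53ERTAM combo, against 3.80, 2.53 and 4.04 CPM in EV combo (-1.86 ± 0.51 (SE), adjusted p = 0.0105, edgeR). Hoxa6 (-1.04 ± 0.27 (SE), adjusted p = 0.00728), Hoxa3 (-0.75 ± 0.21 (SE), adjusted p = 0.012), Hoxa4 (-2.13 ± 0.67 (SE), adjusted p = 0.0209) and Hoxc5 (-1.89 ± 0.65 (SE), adjusted p = 0.0315) were the others by edgeR, all with separate groups. Hoxa3, Hoxa4, Hoxa6 and Hoxc5 had therefore been called higher in p53ERTAM under vehicle and lower under combo.
Hoxa5 (-0.30 ± 0.23 (SE), adjusted p = 0.318) and Hoxc6 (-0.44 ± 0.39 (SE), adjusted p = 0.374) did not reach the threshold by edgeR, nor did Hoxc4 (-0.87 ± 0.47 (SE), adjusted p = 0.142), which limma voom called (adjusted p = 0.0321). Hoxb4 had 1.45, 1.51 and 1.999 CPM in p53ERTAM combo, above 0.380, 1.08 and 0.968 CPM in EV combo, and was called by limma voom (0.0252) and not by edgeR (0.0823).

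**Figure D5:**
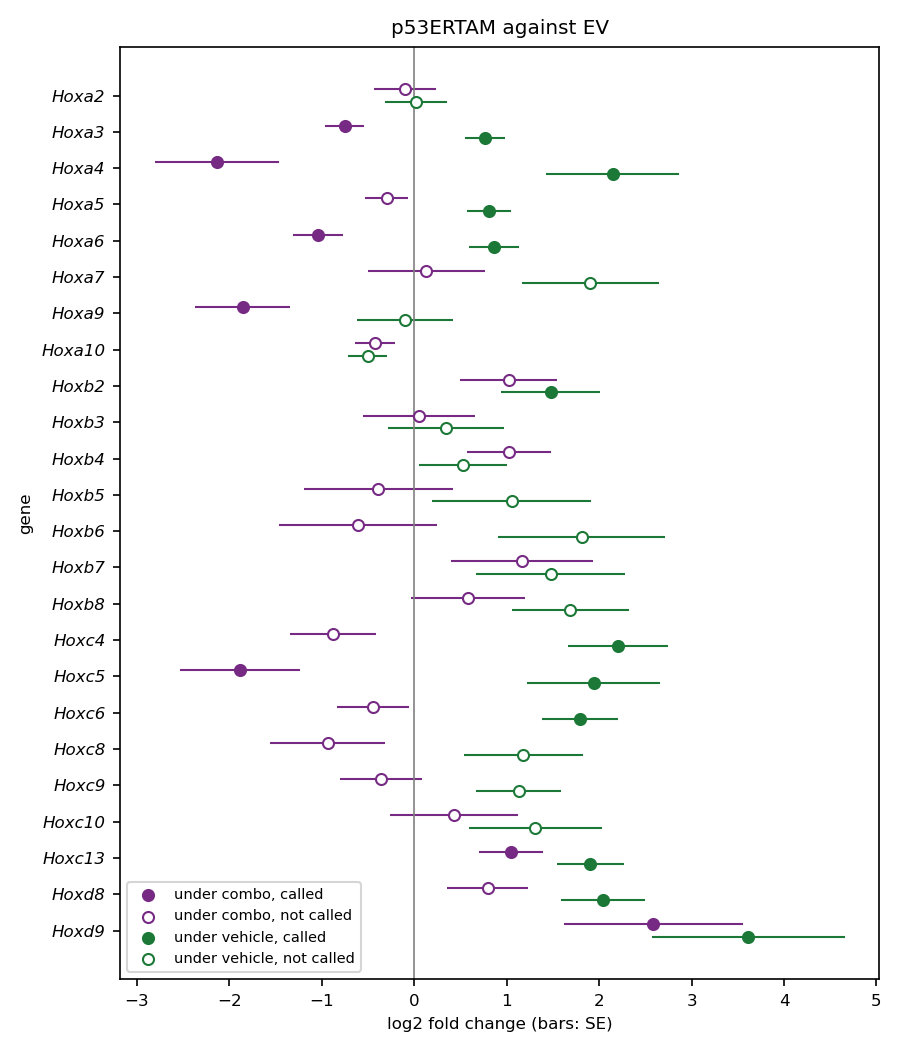
Log2 fold change of p53ERTAM against EV tumors with its standard error for tested Hox genes, under combo and under vehicle, with filled symbols for calls at an adjusted p below 0.05. Hoxc13 and Hoxd9 are filled to the right of 0 under both treatments, and Hoxa3, Hoxa4, Hoxa6 and Hoxc5 are filled left of 0 under combo and right of 0 under vehicle.

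The number of calls was 4 without p53ERTAM combo 3, 5 without p53ERTAM combo 2 and 5 without EV combo 2. Hoxa4 was lost without EV combo 3 (adjusted p = 0.0547, edgeR), p53ERTAM combo 2 (0.0760) or p53ERTAM combo 3 (0.0578). Hoxc5 was lost without EV combo 2 (0.130), p53ERTAM combo 2 (0.0844) or p53ERTAM combo 3 (0.114). Hoxc13 was lost without EV combo 1 (0.0577), EV combo 2 (0.0870) or p53ERTAM combo 3 (0.0953). Hoxd9 was lost in 7 of 12 such fits, all 3 without an EV combo library, all 3 without a p53ERTAM combo library and that without p53ERTAM vehicle 2 (0.0570 to 0.123), and with scaling on protein-coding genes (0.0538). Its log2 fold change was 3.21 without EV combo 3, and Hoxd8 was called higher without that library (adjusted p = 0.0400). Hoxa3, Hoxa6 and Hoxa9 were called without any 1 library. Here 7 of 10 endothelial, 2 of 10 fibroblast and 6 of 8 macrophage markers were called higher in p53ERTAM combo and 5 of 7 basal mammary markers lower, and their part was not tested.

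The 11 tested genes without a call in any comparison are Hoxa2, Hoxa10, all tested Hoxb genes but Hoxb2, and Hoxc8, Hoxc9 and Hoxc10. Hoxa2 had overlapping groups throughout, with 3.54, 2.68 and 4.15 CPM in p53ERTAM combo, 3.52, 3.52 and 4.48 in p53ERTAM vehicle, 2.92, 4.76 and 3.47 in EV combo and 4.43, 4.78 and 2.13 CPM in EV vehicle. Hoxb3, which patterns the hindbrain, had 1.97, 0.519 and 2.12 CPM in p53ERTAM combo, 1.09, 1.47 and 1.63 in p53ERTAM vehicle, 1.01, 1.44 and 1.99 in EV combo and 2.17, 0.701 and 0.416 CPM in EV vehicle, and 52.9% of its exon bases overlap the antisense gene Hoxb3os. Its 5 log2 differences lay between -0.29 and 0.44. Without EV vehicle 1, its highest EV vehicle library, they were 1.41 for combo in EV tumors, 1.30 between the vectors under vehicle and -1.26 for the interaction, still without a call. Hoxc9, needed for thoracic patterning, had 3.38, 2.81 and 3.96 CPM in p53ERTAM combo, 5.002, 3.96 and 4.66 in p53ERTAM vehicle, 3.93, 5.63 and 3.47 in EV combo and 4.04, 1.36 and 0.833 CPM in EV vehicle. EV vehicle 1 stands apart from the other EV vehicle libraries here, at the level of the other groups. Hoxc8 had 1.97, 1.08 and 2.43 CPM in p53ERTAM combo, 2.33, 4.33 and 1.22 in p53ERTAM vehicle, 2.22, 4.98 and 3.36 in EV combo and 1.13, 2.06 and 0.208 CPM in EV vehicle. The lowest of these 12 values was again that of EV vehicle 3. Hoxb8 had its highest level in p53ERTAM vehicle 2 (0.495, 2.05 and 0.699 CPM in p53ERTAM vehicle) and 0.175 to 1.05 CPM in the other groups, and its difference between the vectors under vehicle was just outside the threshold (1.69 ± 0.64 (SE), adjusted p = 0.0505, edgeR).

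The clusters hold 43 noncoding genes, of which 6 were tested, all in the Hoxa cluster. Hoxaas2 (chr6:52165674-52169564), an antisense RNA that overlaps Hoxa3, was called in the same direction as Hoxa3 for combo in EV tumors and for the interaction. It had 0.724, 0.606 and 0.862 CPM in p53ERTAM combo, 1.29, 1.03 and 0.815 in p53ERTAM vehicle, 1.14, 1.66 and 1.65 in EV combo and 0.591, 0.701 and 0.468 CPM in EV vehicle. It was called higher under combo in EV tumors (log2 fold change 1.32 ± 0.42 (SE), adjusted p = 0.0231, edgeR), where the groups are separate, and its interaction was -1.84 ± 0.59 (SE), adjusted p = 0.0272 (edgeR). Exons of antisense genes overlap 25.4% of the exon bases of Hoxa3, 15.998% of Hoxa4, 20.4% of Hoxa7 and 27.3% of Hoxb2. Whether the counting used strand is not given in the sources used here, so reads of these pairs may not be separated. Hoxc5 and Hoxc10 share 166 exon bases on 1 strand, 5.37% of Hoxc5. Hotairm1, an antisense RNA of the Hoxa cluster, was not called in any of the 5 comparisons (log2 fold changes of -0.09 in p53ERTAM and -0.66 in EV tumors under combo). Of 16 protein-coding neighbours just outside the clusters, 13 were tested. Under combo in EV tumors 1 was higher and 4 lower, among them Hibadh beside the Hoxa cluster (-0.74 ± 0.11 (SE), adjusted p = 0.000424, edgeR), against 18.8% and 21.1% over all tested genes, and in p53ERTAM tumors none was called. Between the vectors, 2 neighbours were called higher and 2 lower under combo, against 22.1% and 22% over all tested genes. Under vehicle 4 were higher and 2 lower, against 17.9% and 19.8%. With so few neighbours, whether they differ from the other genes was not tested.

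HOX proteins work with PBX, MEIS and PREP cofactors, and 9 of 9 such genes were tested. The counts of this and the next lists stand against the following shares of all tested genes called higher and lower: 18.8% and 21.1% for combo in EV tumors, 3.3% and 2.98% for combo in p53ERTAM tumors, 22.1% and 22% between the vectors under combo, 17.9% and 19.8% under vehicle, and 18.8% and 17.2% for the interaction. In EV tumors combo raised 2, Meis2 and Meis1, and lowered 2, Pbx2 and Pknox1. Meis2 had 1.39, 1.15 and 1.99 CPM in EV combo, against 0.197, 0.351 and 0.312 CPM in EV vehicle (2.38 ± 0.48 (SE), adjusted p = 0.00207, edgeR). Meis1 had 0.888, 1.01 and 0.911 CPM in EV combo, against 0.197, 0.438 and 0.104 CPM in EV vehicle (1.87 ± 0.55 (SE), adjusted p = 0.0161, edgeR). Both sets of groups are separate, and the median of the 9 was -0.07. None was called in p53ERTAM tumors or for the interaction. Between the vectors Meis3 was higher in p53ERTAM tumors under combo (3.01 ± 0.49 (SE), adjusted p = 0.000347) and under vehicle (2.41 ± 0.47 (SE), adjusted p = 0.00161), by edgeR. In all, 1 cofactor was called higher and 2 lower under combo, and 2 higher and 2 lower under vehicle, between the vectors.

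Trithorax and MLL proteins keep Hox genes on. Of 18 such genes, combo raised 8 and lowered 3 in EV tumors (median log2 fold change 0.08), and changed none past the threshold in p53ERTAM tumors. Kmt2d had 530, 572 and 492 CPM in p53ERTAM combo, 664, 849 and 540 in p53ERTAM vehicle, 1349, 1242 and 1406 in EV combo and 465, 419 and 487 CPM in EV vehicle. EV combo stands above all other groups, with a log2 fold change of 1.54 ± 0.14 (SE), adjusted p = 4.38e-05 and an interaction of -1.91 ± 0.20 (SE), adjusted p = 0.000168 (edgeR). Kmt2a, the mouse MLL1 gene, rose under combo in EV tumors by 0.73 ± 0.11 (SE), adjusted p = 0.000424 and Kmt2b by 0.95 ± 0.13 (SE), adjusted p = 0.000255 (edgeR). Their interactions were -0.88 and -1.29, and 7 of the 18 were called negative and 1 positive. Between the vectors 1 gene was higher and 11 lower under combo (median log2 fold change -0.38), and 3 higher and 4 lower under vehicle (median -0.17). Whether these genes had a part in the Hox differences was not tested. Nor was the part of the RNA composition of the EV combo libraries in their own changes.

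Polycomb complexes keep Hox genes off, and all 27 listed genes were tested. In EV tumors combo raised 4 and lowered 12 (median -0.16), among them Rbbp7 (-0.71 ± 0.11 (SE), adjusted p = 0.000469), Phc2 (-0.60 ± 0.10 (SE), adjusted p = 0.000625) and Phf19 (-0.80 ± 0.14 (SE), adjusted p = 0.000866) by edgeR. In p53ERTAM tumors 0 were higher and 2 lower, Phf19 (-0.80 ± 0.14 (SE), adjusted p = 0.0111) and Ezh2 (-0.41 ± 0.10 (SE), adjusted p = 0.0292). Ezh2, the methyltransferase of the repressive complex, had 76.2, 74.9 and 73.3 CPM in p53ERTAM combo, 108, 98.9 and 90.8 in p53ERTAM vehicle, 154, 139 and 153 in EV combo and 141, 126 and 144 CPM in EV vehicle. It was thus lower in p53ERTAM than in EV tumors under combo (-0.99 ± 0.10 (SE), adjusted p = 1.02e-05, edgeR) and under vehicle (-0.46 ± 0.10 (SE), adjusted p = 0.00253). Between the vectors 2 genes were higher and 7 lower under combo, and 4 higher and 9 lower under vehicle, with 4 positive and 6 negative interactions. The part of the Polycomb genes in the Hox differences was not tested.

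Of 18 genes for retinoic acid synthesis, receptors and breakdown, 15 were tested. In EV tumors combo raised Cyp26b1, which breaks retinoic acid down, (1.80 ± 0.49 (SE), adjusted p = 0.0125, edgeR), and lowered the receptor gene Rarb (log2 fold change -1.87 ± 0.40 (SE), adjusted p = 0.00281) and Stra6, which takes up retinol (-1.04 ± 0.21 (SE), adjusted p = 0.00227, edgeR). In p53ERTAM tumors 1 was called, Rxrb, lower (-0.43 ± 0.11 (SE), adjusted p = 0.0431, edgeR). The interaction was called positive for 3, Rarb (2.22), Stra6 (1.53) and Rdh10 (0.93), and negative for none. Between the vectors 2 were higher and 2 lower under combo and 4 higher and 5 lower under vehicle. A part of the cofactor and retinoic acid genes in the Hox differences was not tested either. None of the 6 ParaHox and Cdx genes passed the filter, and of the 2 Evx genes beside the clusters 1 was tested and not called.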

How the data were processed

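The deposited files hold counts per gene for 12 libraries. Per the labels' protocols, RNA was extracted with Direct-zol and libraries were made with an Illumina stranded total RNA kit that includes Ribo-Zero depletion. FastQC, fastp, STAR, featureCounts and GRCm38.p5 are named in the submitters' processing notes, with no versions. The strand setting and annotation release are not given in the sources used here. Library totals were 13484873 to 24424964 counts, and intervals or floors cover counting error only.

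Genes were kept with filterByExpr (0.501 CPM in 3 libraries), scaled by TMM (factors 0.9406 to 1.055) and tested with edgeR 4.0.16 in R 4.3.3, as group means of 12 libraries with 8 residual degrees of freedom (biological coefficient of variation 0.2213). Adjusted p-values are Benjamini-Hochberg over 17970 genes, and a call is below 0.05. TPM was computed from count and exon length, and SE from the fold change and F statistic. Exon lengths and coordinates equalled those of GENCODE M21 for the 39 genes. limma 3.58.1 voom and DESeq2 1.42.0 were alternatives, with other filters, scalings, groups in the fit, a test against a fold of 1.5, a replicate block and each library left out. P-values measure the spread between samples that may not be separate experiments. Named Hox genes are those called in at least 1 of the 5 comparisons and the 2 of highest mean TPM in each cluster, and of each list up to 3 called genes of smallest p. Hoxa2, Hoxa10, Hoxb5, Hoxb8, Hoxb9, Hoxc8, Pknox1, Hotairm1 and Cdkn1a were named after their values were seen. The Hox genes, the lists and the markers were chosen with earlier results of these data known. The counts cover all genes, and results of some single genes are not reported here.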

Additional observations from a re-analysis of the deposited data

Results flagged for a closer look

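The response to combo differed between p53ERTAM and EV tumors by the interaction test of edgeR for 7 Hox genes. The interaction, the log2 fold change of combo in p53ERTAM tumors minus that in EV tumors, was -4.28 for Hoxa4, -3.83 for Hoxc5, -3.08 for Hoxc4, -2.23 for Hoxc6, -1.91 for Hoxa6, -1.52 for Hoxa3 and -1.11 for Hoxa5. All 7 rest on 3 tumors a group, and the same 3 EV vehicle libraries enter each of them.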

How the results depend on the processing

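Counts of called Hox genes stand beside the reported count in parentheses, and alternatives not named for a comparison gave that same count. No fold change of a named gene turned its direction past the threshold. For combo against vehicle in EV tumors (10), the test against a fold of 1.5 called 5, DESeq2 12, limma voom 8, no filter on low counts 9 and the 2 groups alone 7, and leaving out 1 library gave 7 to 11. In p53ERTAM tumors (0), DESeq2 and limma voom each called 1, and leaving out 1 library gave 0 throughout. For p53ERTAM against EV under vehicle (11), limma voom called 7, DESeq2 14, DESeq2 size factors and scaling on protein-coding genes 12 each, the test against a fold of 1.5 called 5, the 2 groups alone gave 5, and leaving out 1 library gave 6 to 12. Under combo (8), the test against a fold of 1.5 called 1, limma voom 10, and leaving out 1 library gave 4 to 8. For the interaction (7), DESeq2 called 10, limma voom 8, the test against a fold of 1.5 called 6, and leaving out 1 library gave 6 to 9. The causes were not tested. The replicate block gave 11, 0, 9, 7 and 7 calls in the same order. Correlations of deviations from the group mean were -0.149 to 0.211 for same-numbered samples, with 2 of 18 above 0.1. For differently numbered samples they were -0.262 to 0.152, with 4 of 36 above 0.1. This check showed no clear pairing by number and, with 3 samples a group, cannot exclude it. Without the 3 EV combo libraries the comparisons that do not use them had 0 calls in p53ERTAM tumors and 10 under vehicle. Leaving out 4 abundant noncoding RNAs, chosen after seeing the data, gave 10, 0, 12, 8 and 7. Scaling on protein-coding genes shifted all genes by 0.129 for combo in EV tumors, -0.109 between the vectors under combo and -0.180 for the interaction on the log2 scale. The Hox medians were then 1.19, -0.41 and -1.43. Of 1882 values of 17 named genes, 1759 kept their side of the threshold, 100 fell short of it and 23 newly passed it. Hox genes had few counts, and 14 did not pass the filter, 6 of them without any count. The fit with no filter on low counts took in 33 Hox genes. Its results for the single genes below the filter are not reported here, so nothing is said on whether those genes differ.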
